A study of Mus musculus with 8 samples.

Results

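The heat shock protein genes described here are 10 named rows of an expression table of 23393 gene symbols: Hspa1a, Hspa1b, Hspa8, Dnajb1, Hsph1, Hsp90aa1, Hspb1, Hspb8, Hspd1 and Hspa5. They were chosen by name, with earlier results of these data known. All 10 were present and passed the filter on low values (at least 1 FPKM in at least 2 libraries). Their levels were read in 8 poly(A) RNA-seq libraries of epithelium from the gut of mouse embryos at E16.5, late in gestation, with 2 libraries from each of 4 tissues. FPKM is a fragment count divided by transcript length and library size, which puts genes of different length on 1 scale.

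Heat shock proteins are molecular chaperones, which hold or refold other proteins. Hsp70 proteins bind unfolded stretches in cycles driven by ATP, J-domain proteins (Dnajb1) start the cycle and exchange factors (Hsph1) end it, Hsp90 matures client proteins, and the small heat shock proteins (Hspb1, Hspb8) keep damaged proteins from aggregating. The transcription factor HSF1 raises the inducible genes, Hspa1a and Hspa1b above all, when cells meet heat or other protein damage, while Hspa8 is the Hsp70 that cells make at all times. Hspd1 works in mitochondria and Hspa5 in the endoplasmic reticulum, each with its own stress response. In stratified squamous epithelium, such as skin and the lining of the rodent forestomach, Hspb1 is known as a gene of differentiating keratinocytes.

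All embryos were of the same genotype per the labels' protocols, ShhCre;R26YFP/+, in which Cre made from the Shh gene switches on a yellow fluorescent reporter in gut epithelium, and none was treated. The forestomach, which has squamous epithelium, was cut from the glandular hindstomach under a microscope, kept in the protease Dispase for 15 minutes at 37 °C, and its epithelium was then peeled from the mesenchyme by hand. The hindstomach was shaken in 10 mM EDTA, and the proximal small intestine (intestine below) and the colon in 5 mM EDTA, all for 30 to 40 minutes at 4 °C. The forestomach thus differed from the other 3 tissues, called the EDTA tissues below, in tissue, reagent, temperature and handling at once, and these cannot be told apart. Replicate numbers 1 and 2 are all that the labels give for the libraries of a tissue. Whether different embryos stood behind them is not said, and the p-values reflect the spread between libraries alone, possibly a technical one.

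The library labelled forestomach replicate 1 stood apart. Its summed FPKM was 545227 against 328490 to 378497 in the other 7 libraries, its 10 most abundant genes held 52.5% of that sum against 6.27% to 17.4%, and its correlation with its partner across the 12894 genes tested was 0.713, against 0.959 to 0.984 for the other tissues. It held the summed level of 16 gastric glandular markers at 169898 FPKM, against 2565 in forestomach replicate 2 and 12.7 to 36628 in the 6 EDTA libraries. These markers differed from the hindstomach in both directions. Pgc stood at 97970 FPKM against 349 and 533 in the hindstomach libraries, but Cym at 8.49 against 23524 and 29459. Pga5, Gkn3 and Cldn18 were also below both hindstomach libraries, and the other listed markers above both. The genes named here were picked after their values were seen. Of 16 squamous markers, 14 were higher in both forestomach libraries than in all 6 EDTA libraries, with sums of 2291 and 56840 FPKM against 4.92 to 290.4. FPKM divides by the sequenced total, so very abundant transcripts lower the values of all other genes in a library, and the differences from the EDTA mean are given with and without this one. Whether the tissue or stage of this library matches its label was not tested, so its values, and the forestomach means that hold them, are those of a library labelled forestomach. The number of reads behind each value is unknown.

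The promoters of the genes that differed most are shown first. HSF1 recognises heat shock elements, inverted repeats of the 5-base unit nGAAn, so the 250 bases before each RefSeq start site (GRCm38.p6) were searched for a pair of units in either orientation, GAANNTTC or TTCNNGAA. The table used holds such windows for 8 of the 10 genes, not Hspa8 and Hsp90aa1. The 150 bases just before the start site of the 4 genes called higher in the forestomach read, 5′ to 3′ on the gene's strand with matches to a pair in capitals:
Hspa1a: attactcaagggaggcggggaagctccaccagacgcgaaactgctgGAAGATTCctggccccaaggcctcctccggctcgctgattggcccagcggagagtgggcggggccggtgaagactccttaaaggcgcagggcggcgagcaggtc
Hspa1b: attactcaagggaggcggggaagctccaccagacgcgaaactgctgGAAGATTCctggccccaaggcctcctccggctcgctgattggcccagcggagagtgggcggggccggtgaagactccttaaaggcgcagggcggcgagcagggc
Hspb1: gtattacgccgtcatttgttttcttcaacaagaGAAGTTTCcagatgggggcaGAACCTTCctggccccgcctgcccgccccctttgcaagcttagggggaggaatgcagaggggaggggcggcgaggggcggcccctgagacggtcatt
Hspb8: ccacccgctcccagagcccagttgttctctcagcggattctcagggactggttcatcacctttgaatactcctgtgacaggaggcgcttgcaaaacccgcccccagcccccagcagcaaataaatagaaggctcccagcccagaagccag
These stretches lie at chr17:34972157-34972306 and chr17:34959239-34959388 (minus strand), chr5:135887769-135887918 (plus strand) and chr5:116422865-116423014 (minus strand), and none overlaps an annotated exon. Counting the base before the start site as -1, GAANNTTC begins at -104 in both Hspa1a and Hspa1b, whose 250 bases are identical at 247 positions, and at -117 and -97 in Hspb1. Hspb8 holds neither pair in its window, which says only that these letters are not there. Over all 32851 windows of this length, GAANNTTC occurs in 6.69%, TTCNNGAA in 7.17% and either in 12.8%.

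Elements also occur near genes that were lower, or not called, in the forestomach. Short stretches around the match, in capitals, read:
Hsph1: tagaatctTTCTCGAAggctcgag
Hspd1: gccTTCCGGAAGGTTCTAGAAcgg
Hspa5: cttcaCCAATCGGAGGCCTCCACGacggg
The Hsph1 stretch (chr5:149636354-149636377, minus strand) holds TTCNNGAA from -33 of the first of the gene's RefSeq start sites. The Hspd1 stretch (chr1:55088056-55088079, minus strand), before the second of its start sites, holds 2 overlapping matches to the longer element GAANNTTCNNGAA, searched on both strands and found in 0.466% of windows. The Hspa5 stretch (chr2:34772020-34772048, plus strand) holds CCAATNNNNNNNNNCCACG, the ER stress response element, from -65, which occurs in 0.113% of windows. The windows of Dnajb1, and that before the first Hspd1 start site, hold none of these. The Hspd1 and Hspa5 stretches, and nearly all of the Hsph1 stretch, lie inside the gene as annotated in GENCODE M21. Whether they overlap exons was not examined. A match describes the sequence and does not show that a factor was bound.

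The inducible Hsp70 genes were the members that separated the forestomach with the least spread between its libraries. In forestomach replicates 1 and 2, Hspa1a (chromosome 17 from 34969190 to 34972156, GRCm38) had a level of 12.5 and 13.96 FPKM. It stood at 0.32 and 0.31 in the hindstomach, at 0.33 and 0.38 in the intestine and at 0.76 and 1.96 in the colon. Its neighbour Hspa1b (34956436 to 34959238) stood at 23.5 and 27.2 FPKM in the forestomach, 0.92 and 0.75 in the hindstomach, 0.90 and 0.74 in the intestine and 1.74 and 3.49 in the colon. For both genes the lower forestomach library was above the highest EDTA library, colon replicate 2, by 6.34-fold for Hspa1a and 6.72-fold for Hspa1b. Below the forestomach came the colon for both genes. The hindstomach and intestine libraries overlapped for Hspa1b, did not overlap for Hspa1a, and limma called neither gene between these tissues. The forestomach libraries differed from each other by 1.12-fold for Hspa1a and 1.16-fold for Hspa1b.

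On the log2(FPKM + 1) scale, Hspa1a was higher in the forestomach than in the mean of the 3 EDTA tissues by 3.15 ± 0.23 (log2 fold change ± SE, limma adjusted p = 0.000900), and Hspa1b by 3.53 ± 0.23 (limma adjusted p = 0.000563). The differences were 3.23 and 3.63 without forestomach replicate 1 and 3.08 and 3.43 without forestomach replicate 2. The added 1 FPKM compresses genes that lie below it in most libraries: with 0.1 FPKM added the differences were 4.40 and 4.29. The transcripts of this pair are nearly alike, with 58.8% of the 50-base words of Hspa1a also present in Hspa1b and 62.3% of those of Hspa1b in Hspa1a, so the split of reads between them is uncertain and depends on the authors' counting. Hspa1a also overlaps the exons of an antisense gene, Gm20481, which is no row of the table. The ratio of Hspa1b to Hspa1a ran from 1.78 to 2.84 over the 8 libraries.

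A ratio within a library does not depend on how libraries are scaled. The sum of Hspa1a and Hspa1b depends less on the split of reads between them, though how shared reads were counted is not recorded. This sum was 11.0% and 16.9% of the level of the constitutive Hsp70 gene Hspa8 in the forestomach libraries. It was 0.311% and 0.342% in the hindstomach, 0.336% and 0.340% in the intestine, and 0.867% and 1.72% in the colon. The lower forestomach value was 6.40-fold above the highest EDTA value, and the 4 hindstomach and intestine libraries lay close together. The mean log2 ratio was higher in the forestomach by 4.73, against an SD of 0.415 between libraries of a tissue. The ratio is given as a description, without a test.

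**Figure D1:**
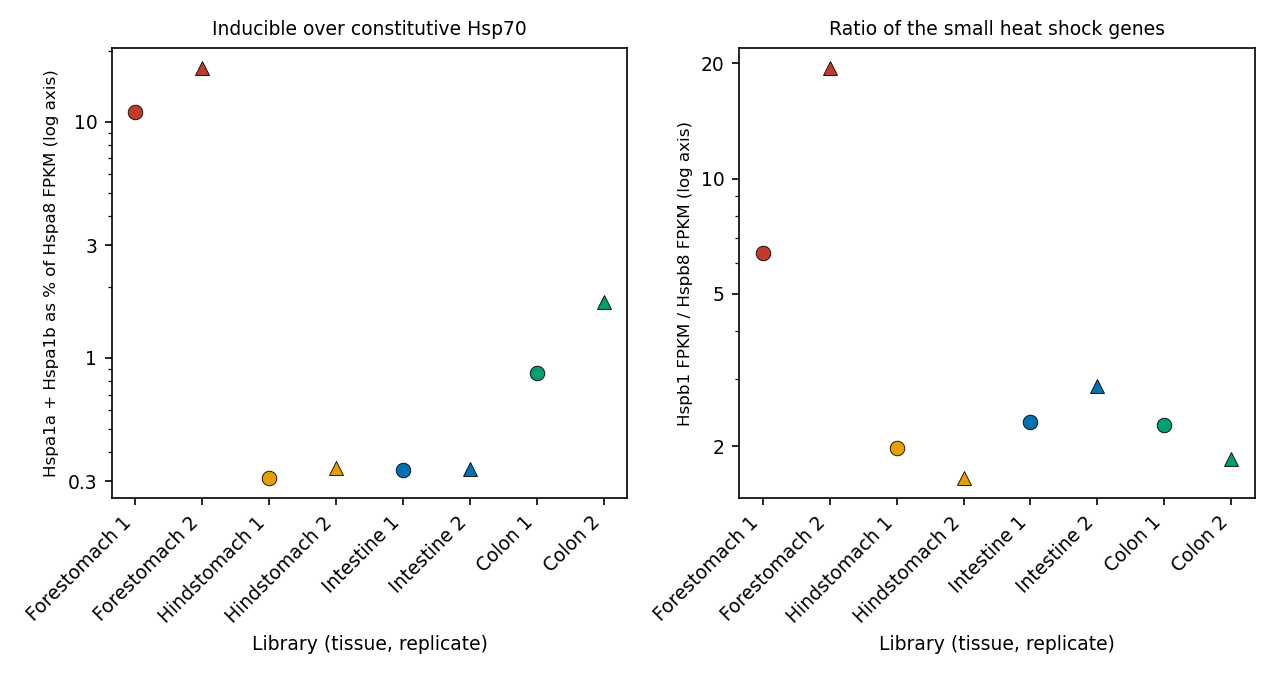
Left, summed FPKM of Hspa1a and Hspa1b as a percentage of Hspa8 FPKM, and right, Hspb1 FPKM divided by Hspb8 FPKM, in each of the 8 libraries (log axes, 1 point per library, circles replicate 1, triangles replicate 2). The forestomach libraries sit at 11.0% and 16.9% on the left, against at most 1.72% elsewhere, and at 6.38 and 19.4 on the right, against at most 2.87.

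The small heat shock genes showed the widest range. Hspb1 (chromosome 5 from 135887919 to 135889563), whose protein binds unfolding proteins and actin, stood at 195 and 1080.2 FPKM in the forestomach, at 9.32 and 4.79 in the hindstomach, at 3.27 and 1.23 in the intestine and at 7.88 and 14.8 in the colon. The forestomach libraries differed by 5.54-fold, yet the lower one was 13.2-fold above the highest EDTA library. The tissue means ± SD (n = 2 each) were 638 ± 626 FPKM in the forestomach, 7.06 ± 3.20 in the hindstomach, 2.25 ± 1.44 in the intestine and 11.3 ± 4.90 in the colon.

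Hspb8 (chromosome 5 from 116408491 to 116422864), which works with the co-chaperone Bag3 in the autophagy of damaged proteins, stood at 30.5 and 55.6 FPKM in the forestomach, 4.73 and 2.90 in the hindstomach, 1.41 and 0.43 in the intestine and 3.47 and 8.0 in the colon. Both small genes had the same order of tissue means, forestomach, colon, hindstomach, intestine, in which the libraries of colon and hindstomach overlapped and those of hindstomach and intestine did not. Hspb1 was higher in the forestomach than in the EDTA mean by 6.13 ± 0.69 (log2 fold change ± SE, limma adjusted p = 0.00351), by 7.36 without forestomach replicate 1 and by 4.90 without forestomach replicate 2. For Hspb8 the difference was 3.47 ± 0.40 (limma adjusted p = 0.00395), with 3.89 and 3.05 when replicate 1 or replicate 2 was left out. Both calls, and that of Hspd1 below, ended when limma weighted the libraries by their spread, which gave the forestomach libraries a weight of 0.140 each against 1.04 to 3.52 for the others (adjusted p = 0.0851 for Hspb1, 0.186 for Hspb8 and 0.179 for Hspd1). Of the 50-base words of Hspb1, 48.8% also occur in the pseudogene Hsp25-ps1, which is no row of the table, so reads of the 2 cannot be fully told apart.

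The lens and muscle small heat shock gene Cryab, no member of the 10, followed the same pattern at 78.95 and 186 FPKM in the forestomach against 0.82 to 11.1 in the EDTA libraries, a difference of 4.81 ± 0.46 (limma adjusted p = 0.00211). It was the 1 of 4 tested genes of the small heat shock list to be called, also without forestomach replicate 1, while 3 of the 4 were called higher without replicate 2. Bag3 stood at 30.6 and 27.9 FPKM in the forestomach and at 1.54 to 12.9 in the EDTA libraries.

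**Figure D2:**
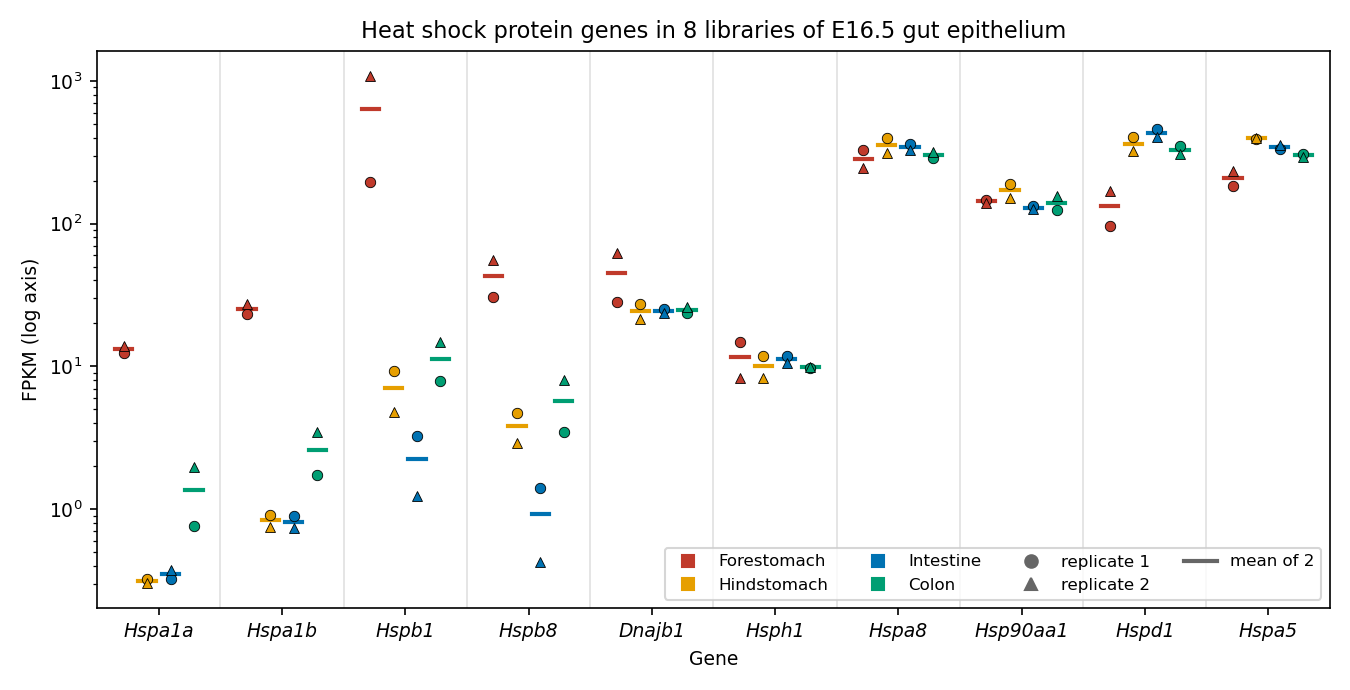
FPKM (log axis) of the 10 heat shock genes in each library, colored by tissue, with circles for replicate 1, triangles for replicate 2 and a bar at the mean of the 2. Hspa1a, Hspa1b, Hspb1 and Hspb8 lie well above the other tissues in the forestomach, Hspd1 and Hspa5 lie below them, and Hsph1, Hspa8 and Hsp90aa1 overlap.

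The partners of Hsp70 differed less. Dnajb1, the J-domain partner that is itself induced by heat, stood at 28.5 FPKM in forestomach replicate 1 and 62.3 in replicate 2, against 27.2 and 21.7 in the hindstomach, 25.4 and 23.5 in the intestine and 23.6 and 26.3 in the colon. The 6 EDTA libraries spanned only 1.25-fold, and forestomach replicate 1 was 1.05-fold above the highest of them. The difference was 0.76 ± 0.30 (log2 fold change ± SE, limma adjusted p = 0.118) with all libraries and 1.31 ± 0.16 (limma adjusted p = 0.00230) without forestomach replicate 1. It was 0.21 (limma adjusted p = 0.309) without forestomach replicate 2, so the difference rested on replicate 2.

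Hsph1, a nucleotide exchange factor of the Hsp110 class, stood at 14.9 and 8.33 FPKM in the forestomach and at 8.37 to 11.9 in the EDTA libraries, and the groups overlapped. Its difference was 0.10 ± 0.25 (limma adjusted p = 0.784), with a 95% interval from -0.50 to 0.71. It was -0.28 without forestomach replicate 1 and 0.49 without replicate 2, and the sign is not settled.

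Hspa8 was among the most abundant members, at 326 and 244 FPKM in the forestomach, 399 and 310.0 in the hindstomach, 363 and 330.0 in the intestine and 289 and 317 in the colon. Hsp90aa1, the heat-inducible cytosolic Hsp90 gene, stood at 148 and 139.9 FPKM in the forestomach, 191 and 152 in the hindstomach, 133 and 126 in the intestine and 124 and 157 in the colon. For Hspa8, forestomach replicate 1 lay within the EDTA range and replicate 2 below it, and for Hsp90aa1 both forestomach libraries lay within it. The difference was -0.24 for Hspa8 (95% interval -0.74 to 0.26, limma adjusted p = 0.430) and -0.02 for Hsp90aa1 (95% interval -0.45 to 0.41, limma adjusted p = 0.949). With the libraries rescaled by median-of-ratios factors both were above 0, at 0.09 and 0.31. Near-identical copies elsewhere in the genome share 39.4% of the 50-base words of Hspa8 and 47.5% of those of Hsp90aa1.

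The organelle chaperones went the other way. Hspd1 (chromosome 1 from 55077835 to 55088243), the Hsp60 chaperonin of mitochondria, stood at 95.6 and 169 FPKM in the forestomach, 405 and 323 in the hindstomach, 461 and 402 in the intestine and 348 and 306 in the colon. Both forestomach libraries lay below all 6 EDTA libraries, the lowest of which was 1.81-fold above the higher forestomach library. Hspd1 was lower in the forestomach by 1.54 on the log2 scale (change -1.54 ± 0.26, limma adjusted p = 0.0126), and the change was -1.13 without forestomach replicate 1, -1.94 without replicate 2 and -1.20 with median-of-ratios scaling. Of its 50-base words, 42.1% also occur in other genes, 38.0% in the pseudogene Hspd1-ps3, so its reads may be shared with them. Hspe1, which encodes the Hsp10 cap of the same chaperonin, is transcribed from the opposite strand and overlaps Hspd1, so reads of the 2 may also be shared. It stood at 69.5 and 92.5 FPKM in the forestomach against 139 to 198 in the EDTA libraries, a change of -1.04 ± 0.17 (limma adjusted p = 0.0117) that fell short of 2-fold without forestomach replicate 1 (-0.84).

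Hspa5, the Hsp70 of the endoplasmic reticulum, stood at 184 and 233 FPKM in the forestomach, 392 and 401 in the hindstomach, 333 and 357 in the intestine and 309 and 295 in the colon. The lowest EDTA library was 1.27-fold above the higher forestomach library. Its change of -0.74 ± 0.17 had a limma adjusted p of 0.0329 but was under 2-fold, so it was not called, and with median-of-ratios scaling the change was -0.40 (adjusted p = 0.207). The Hsp90 of the same organelle, Hsp90b1, stood at 184 and 180.1 FPKM in the forestomach against 346 to 493, a change of -1.14 ± 0.16 (limma adjusted p = 0.00739).

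Counted over the 10 genes, 4 were called higher in the forestomach than in the EDTA mean (Hspa1a, Hspa1b, Hspb1 and Hspb8) and 1 lower (Hspd1), where called means a limma adjusted p under 0.05 and at least 2-fold. Of the 12894 genes tested, 13.5% were called, 3.8% higher and 9.69% lower. The median difference was 0.43 over the 10 genes and -0.32 over all genes tested, the latter moving to -0.04 with median-of-ratios scaling. That scaling changed the share of all calls that were higher from 28.2% to 47.6%, while the members again numbered 4 higher and 1 lower (10.8% of all genes called, 5.13% higher). Without forestomach replicate 1, 5 members were higher, Dnajb1 being the fifth, and 1 was lower, with 23.5% of all genes called and 7.56% higher; the single forestomach library is then assumed to vary like the others. Without forestomach replicate 2 the members were again 4 higher and 1 lower, with 26.5% of all genes called and 7.77% higher.

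Both forestomach libraries exceeded all 6 EDTA libraries for 5 members, Dnajb1 among them, and for 5.17% of genes tested. Both lay below all 6 for 2 members, Hspd1 and Hspa5, and for 26.7% of genes tested. A position below all EDTA libraries was thus common in this table, and a position above them was not.

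Each EDTA tissue was also compared with the forestomach on its own, with shared forestomach libraries. Against the hindstomach 4 members were higher and 0 lower, where 5.59% of all genes were called, 1.33% higher and 4.26% lower. Against the intestine 4 were higher and 1 lower, where 17.1% of all genes were called, 5.78% higher and 11.3% lower. Against the colon 4 were higher and 1 lower, where 11.6% were called, 2.41% higher and 9.2% lower. The higher ones were the same 4 genes in each, and the lower one was Hspd1. Hspa1a was higher by 3.43, 3.39 and 2.63 against hindstomach, intestine and colon, and Hspa1b by 3.84, 3.85 and 2.90. Hspb1 was higher by 5.90, 7.22 and 5.28 and Hspb8 by 3.16, 4.51 and 2.74.

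Hspd1 changed by -1.5 against the hindstomach, where its limma adjusted p was 0.0513 (unadjusted p = 0.00327), by -1.75 against the intestine and by -1.35 against the colon (adjusted p = 0.0435). The call against the colon was lost in 13 of 22 alternatives, with median-of-ratios scaling (-0.87, adjusted p = 0.167) and without forestomach replicate 1 (-0.95, under 2-fold) among them. The calls against single tissues rested on few libraries. Leaving out either hindstomach library ended those of Hspa1a, Hspb1 and Hspb8 against the hindstomach. A fit of forestomach and colon alone called 0 members and 151 of 12463 genes by limma. At an unadjusted p under 0.05 it held 5 members and 16.3% of all genes tested.

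**Figure D3:**
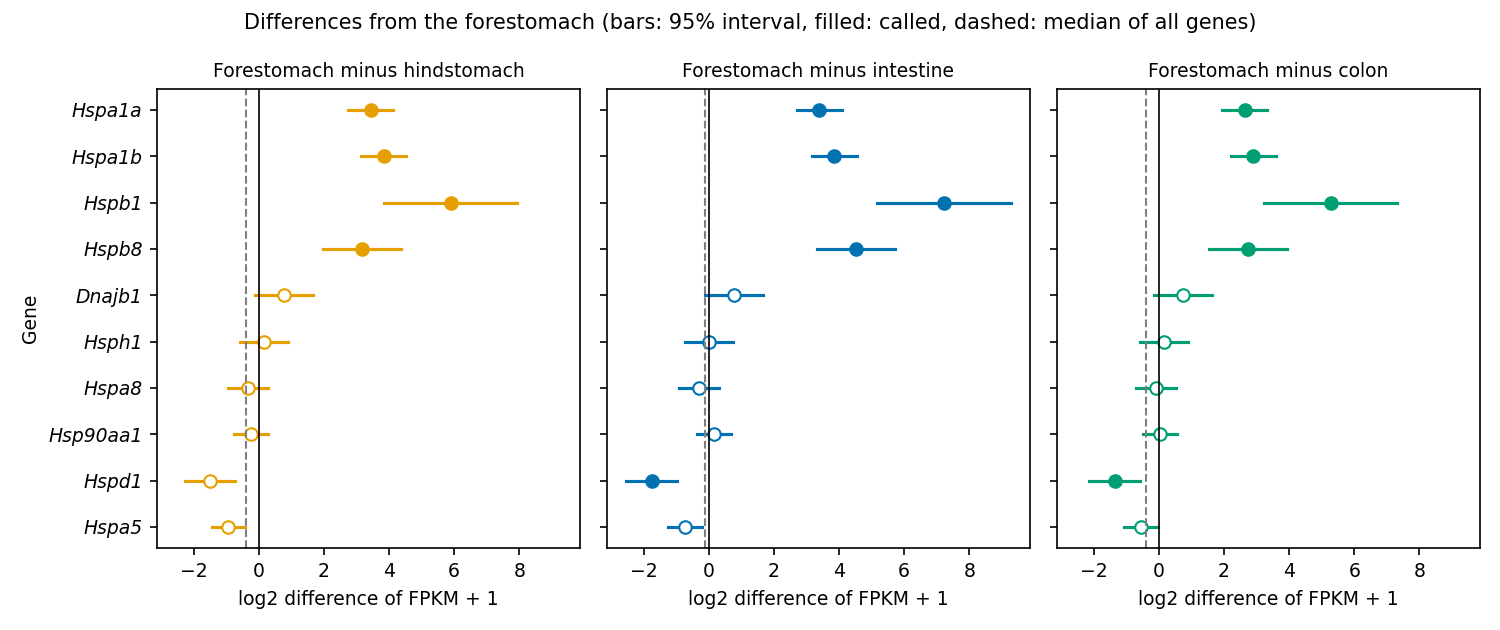
Difference in log2(FPKM + 1) between the forestomach and each EDTA tissue for the 10 genes, with 95% intervals from limma, filled points for called genes and a dashed line at the median of all genes tested. Hspa1a, Hspa1b, Hspb1 and Hspb8 are filled to the right in all 3 panels, and Hspd1 is filled to the left against intestine and colon.

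Among the EDTA tissues no member was called in any of the 3 comparisons, in which limma called 5.03% (hindstomach minus intestine), 1.5% (hindstomach minus colon) and 0.38% (colon minus intestine) of all genes. At an unadjusted p under 0.05 there were 1, 2 and 3 members, where 25.6%, 12.3% and 14.2% of all genes tested reached that threshold. They were Hspb8 between hindstomach and intestine (1.35 ± 0.49 higher in the hindstomach, limma adjusted p = 0.160), Hspa1a and Hspa1b between hindstomach and colon (-0.80 and -0.94), and Hspa1a, Hspa1b and Hspb8 between colon and intestine (0.76, 0.95 and 1.77 higher in the colon, limma adjusted p = 0.337, 0.309 and 0.3). With library weights Hspb1 and Hspb8 were called higher in the hindstomach than in the intestine (limma adjusted p = 0.0413 and 0.0193), in a fit that called 18.3% of all genes, and a fit of these tissues alone called Hspb8 (adjusted p = 0.0297) among 19.7% of all genes.

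The colon libraries stood highest among the EDTA libraries for the inducible Hsp70 genes, and colon replicate 2 was the highest for Hspa1a, Hspa1b, Hspb1 and Hspb8 alike. That library also had the largest summed level of 17 mesenchyme and smooth muscle markers among the EDTA libraries, 2213 FPKM against 107 to 1007 in the other 5. It was likewise the highest EDTA library for 8 neural and glial markers, at 80.5 FPKM against 9.45 to 27.2, and for 10 blood and endothelial markers, at 79.7 against 3.83 to 27.6. The part of these markers in its heat shock values was not tested.

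Other chaperone genes were taken from lists by role. Beside their counts at an unadjusted p under 0.05 stands the share of all genes tested at that threshold, 7.76% higher and 30.1% lower, and 29.7% in either direction with median-of-ratios scaling. The list of cytosolic chaperones and co-chaperones had 27 tested genes, Serpinh1 among them, whose protein works in the endoplasmic reticulum. Of these, 4 were higher in the forestomach than in the EDTA mean and 0 lower (5 and 5 by limma at an unadjusted p under 0.05). The list median was -0.21. The higher ones were Bag3, an Hsp70 exchange factor (2.01 ± 0.28, limma adjusted p = 0.00702), and the J-domain genes Dnaja4 (1.49) and Dnajb2 (1.22). The last was Hspa2, an Hsp70 known from testis (1.24, and 0.70 without forestomach replicate 1). Without that library the count was again 4, with Bag2 (1.58) in place of Hspa2, and without forestomach replicate 2 it was 6 higher and 2 lower.

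The heat shock factor list had 3 tested genes: Hsf1, Hsf2 and Hsbp1, which encodes a binding protein of these factors and not a factor. None was called by limma, 0 of them at an unadjusted p under 0.05. Hsf1 stood at 13.98 and 18.9 FPKM in the forestomach against 13.01 to 23.2 in the EDTA libraries (-0.10 ± 0.18, limma adjusted p = 0.698). Of 8 genes of the cytosolic chaperonin TRiC none was called by limma, 0 at an unadjusted p under 0.05, with a list median of -0.52 that was 0.02 without forestomach replicate 1. Without forestomach replicate 2 the list median was -1.07, where that of all genes was -0.42.

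Of 25 genes of the endoplasmic reticulum list, 3 were lower (Pdia4, Hsp90b1 and P4hb, at -1.21, -1.14 and -1.04) and 0 higher, while limma put 15 lower and 0 higher at an unadjusted p under 0.05, and the median was -0.66. Without forestomach replicate 1 there were 5 lower, among them Dnajb9 (-1.40), Herpud1 (-1.24) and Dnajc10 (-1.09), without replicate 2 there were 7 lower and 1 higher, and with median-of-ratios scaling there were 0 of either (8 lower and 1 higher at an unadjusted p under 0.05). Herpud1, a gene of the response to stress in this organelle, was at 102 FPKM in forestomach replicate 1 and 19.2 in replicate 2. Of 16 mitochondrial chaperones and proteases, 2 were lower (Afg3l2, at -1.05, and Hspe1) and 0 higher (10 and 0 by limma at an unadjusted p under 0.05), 1 was lower without forestomach replicate 1 (Dnajc19, at -1.01), 4 without replicate 2, and 0 with median-of-ratios scaling (7 lower and 1 higher at an unadjusted p under 0.05). The organelle lists lay at medians of -0.66 and -0.59 where that of all genes was -0.32, and at -0.34 and -0.28 where it was -0.04 with median-of-ratios scaling, so their counts of calls depended on scaling.

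Immediate early genes, which many cell stresses and tissue dissociation are known to raise within minutes, were read beside them. Of 18 tested, 7 were higher in the forestomach and 0 lower (8 and 0 by limma at an unadjusted p under 0.05), with a median of 0.69, and of the 17 tested when 1 forestomach library was left out, 6 were higher in each case. Against the hindstomach 4 of the 18 were called higher and 0 lower, with a median of 0.12, where 1.33% of all genes were higher. At an unadjusted p under 0.05, limma put 4 higher and 2 lower there (4.83% and 25.3% of all genes). The list median was 1.26 against the intestine and 0.31 against the colon. Dusp1, a phosphatase that shuts off MAP kinases, stood at 10.1 and 24.9 FPKM in the forestomach against 0.52 to 3.69 in the EDTA libraries (2.73 ± 0.37 against the EDTA mean, limma adjusted p = 0.00629). Ier3 (2.17), Egr3 (2.01) and Junb (1.78) followed, while Jun, named after its values were seen, stood at 37.9 and 30.8 FPKM against 24.1 to 54.5.

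**Figure D4:**
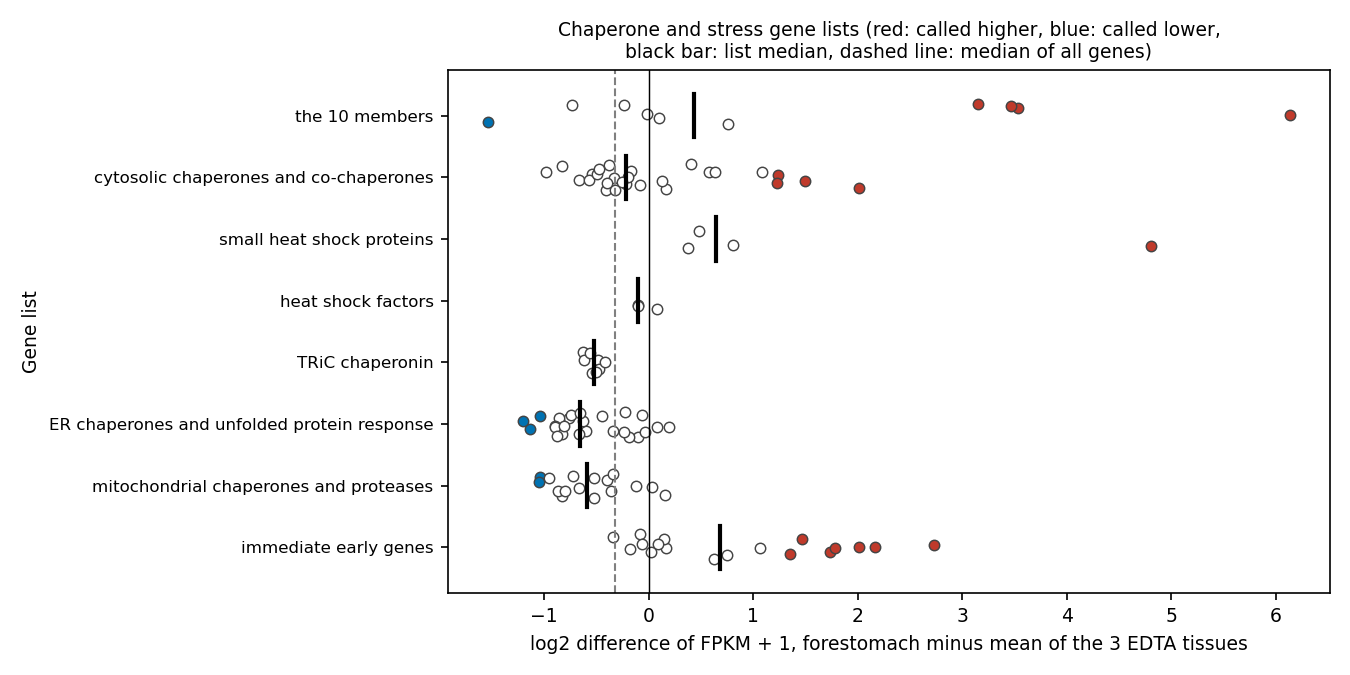
Difference in log2(FPKM + 1) between forestomach and the mean of the 3 EDTA tissues for the 10 heat shock genes and 7 lists (1 point per gene, red called higher, blue called lower, white not called), with a black bar at each list's median and a dashed line at the median of all genes tested. The red points are in the cytosolic, small heat shock and immediate early lists and among the 10 genes, and the blue ones are in the organelle lists and Hspd1.

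Markers of other cells moved with the forestomach libraries. Several small heat shock genes are known from muscle, and the 17 mesenchyme and smooth muscle markers summed to 5799 FPKM in forestomach replicate 1 but to 104 in replicate 2, below the lowest EDTA library (107). In forestomach replicate 2, 8 of these 17 markers and 9 of 10 skeletal and cardiac muscle markers were below 1 FPKM, Des (desmin) being at 0.51. Dcn, also among the 17, instead stood at 61.4 FPKM there. Of the EDTA libraries only colon replicate 2 was higher for it (115 FPKM). Hspb1, Hspb8 and Cryab were at their highest in forestomach replicate 2. Hspb2, Hspb6 and Hspb7 were instead at 8.57, 17.5 and 9.20 FPKM in forestomach replicate 1 and at 0.64, 1.26 and 0.07 in replicate 2. Hspb2 did not pass the filter on low values and was not tested. Hspb6 and Hspb7 were not called with all libraries. The part of muscle cell content in the levels of any of these small heat shock genes was not tested. Hspb2, Hspb6, Hspb7, Des and Dcn, and below Krt14, Krt5, Krt15 and Trp63, were picked for mention once their values were known.

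Squamous markers were higher in replicate 2 in the same direction as Hspb1, with the sums given above. Among basal genes, Krt14 was nearly level in replicates 1 and 2, at 193 and 212 FPKM. Krt5 (167 and 2574 FPKM), Krt15 (11.1 and 2376) and Trp63 (2.85 and 53.0) were instead far higher in replicate 2. The part of squamous cell content in the levels of Hspb1, Hspb8 and Cryab was not tested. Cell cycle genes, 16 in number, summed to 101 and 314 FPKM in the forestomach and to 342 to 589 in the EDTA libraries, and 3 of 16 were lower and 0 higher (13 lower and 0 higher at an unadjusted p under 0.05). The list median was -0.42 without forestomach replicate 1, where that of all genes was -0.24. Without replicate 2 it was -2.11, where that of all genes was -0.42. Their part in the lower Hspd1 was not tested. In bulk RNA, fewer cells of a type and less RNA per cell cannot be told apart.

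Genes whose pattern over the 8 libraries was closest were ranked by the root mean square difference of log2(FPKM + 1), each gene centred on its mean. Hspa1a and Hspa1b were each other's nearest gene among all tested (0.19). Their transcripts are nearly alike, so reads shared between them may have brought these values together. Members, predicted, RIKEN and clone-named gene models and ribosomal pseudogenes were left out of the ranks that follow. Of the remaining genes, Hspa1a was nearest to Acer1 (0.34), an epidermal ceramidase gene, Klk5 (0.38), an epidermal protease gene, and Chd3os (0.40). Hspa1b was nearest to the keratin gene Krt17 (0.45), Hoxc8 (0.45) and Acer1 (0.46). Hspb1 was nearest to Ecm1 (0.55), Lypd3 (0.68) and Sbsn (0.75), genes of differentiating squamous epithelium. Acer1 stood at 9.85 and 14.8 FPKM in the forestomach and at 0.28 to 1.43 in the EDTA libraries, and Ecm1 at 43.5 and 419.9 against 0.40 to 3.39.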

How the data were processed

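Poly(A) RNA-seq values were taken from 1 table of FPKM values that the authors deposited. STAR 2.4.2a and mm10 (GRCm38) are named per the submitters' processing notes; the program that computed FPKM, its annotation and the use of strand are not recorded there. Of its columns, 4 belong to no listed sample and were left aside. Values were analysed as log2(FPKM + 1) for the 12894 of 23393 genes that reached 1 FPKM in 2 or more libraries, with limma 3.58.1 in R 4.3.3 (4 tissue means, eBayes with trend, 4 residual df, two-sided). Benjamini-Hochberg adjustment ran over all genes tested in a comparison, and a gene was called at an adjusted p under 0.05 and at least 2-fold. The fit was tested on simulated data. The members, lists and comparisons were chosen with earlier results of these data known. Text names all members, up to 4 called genes per list with the largest change, Hsf1, Cryab and the 3 nearest genes of Hspa1a, Hspa1b and Hspb1. All 10 members matched GENCODE M21, and promoters come from RefSeq. Alternatives varied the pseudocount, filter, scaling, variance model, fold rule, replicate block, a term for 2 classes of relative depth read from the steps of low values, and the libraries used. FPKM gives no read counts, so no counting interval or detection limit is given.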

Additional observations from a re-analysis of the deposited data

How the results depend on the processing

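In the comparison with the mean of the EDTA tissues, Hspa1a and Hspa1b kept their direction and their call under all 21 alternatives run, and Hspb1, Hspb8 and Hspd1 under 20. With library weights 2 members were called there, 1 against the hindstomach, 3 against the intestine and 0 against the colon, and 2 between hindstomach and intestine. In the first 4 of these comparisons the weighted fit called 237, 78, 692 and 303 of 12894 genes. The main fit called 1739, 721, 2201 and 1497. Between hindstomach and intestine the weighted fit called 2358, against 648 in the main fit. With only the tissues compared in the fit, 2 members were called against the hindstomach (107 of 12013 genes) and 4 against the intestine (724 of 11684). Against the colon 0 were called (151 of 12463), and 1 between hindstomach and intestine (2323 of 11788). The share of all genes called also changed in the fits with 1 library left out. With 1 library left out, the number called ran from 5 to 6 against the EDTA mean, 1 to 6 against the hindstomach, 4 to 6 against the intestine, 2 to 5 against the colon, and stayed at 0 in the 3 comparisons among EDTA tissues. Hspb1 and Hspb8 against the hindstomach also lost their calls without either intestine library, Hspd1 against the intestine without either intestine library (adjusted p = 0.106 and 0.0978), Hspb1 against the colon without either colon library (adjusted p = 0.101 and 0.0593), Hspb8 against the colon without colon replicate 1 (0.115) or either hindstomach library (0.0526 each), and Hspd1 against the colon in 13 of 22 alternatives, forestomach replicate 1 left out among them (-0.95, under 2-fold). The sign of members that were not called turned: Hsph1 was -0.25 with equal library totals and ran from -0.28 (forestomach replicate 1 left out) to 0.49 with 1 library left out, Hspa8 was 0.094 under median-of-ratios scaling, and Hsp90aa1 was 0.31 under that scaling, 0.13 after quantile normalization and from -0.076 to 0.038 with 1 library left out, above 0 where forestomach replicate 2, hindstomach replicate 1 or colon replicate 2 was dropped. Dnajb1 was called with quantile normalization (1.03, adjusted p = 0.0425) and Hspa5 with equal totals (-1.12, adjusted p = 0.0272). The log2 ratio of inducible to constitutive Hsp70 ran from 4.43 to 5.08 over its 10 alternatives. The cause of these shifts was not tested.

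With the replicate number as a block, 5 members were called against the EDTA mean and 5 against the intestine. Against the hindstomach 3 were called (Hspb8 lost its call, limma adjusted p = 0.0568). Against the colon 4 were called (Hspd1 lost its call, limma adjusted p = 0.0858), and 0 among EDTA tissues. Of 12894 genes these fits called 1512 against the EDTA mean, 1900 against the intestine, 335 against the hindstomach and 1052 against the colon. Each number is below that of the main fit. Deviations of same-numbered libraries correlated between -0.58 and 0.27 over pairs of tissues. These values cannot tell whether libraries shared a batch or litter, since a pairing need not follow the replicate number. Depth limits the lowest values, since the reads behind levels under 1 FPKM are unknown.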
